A study of Mus musculus with 30 samples.

Results

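The B4, ID and MIR families, with a few copies of the Deu and tRNA families, are the short interspersed elements (SINEs) of the mouse genome that belong to neither the Alu/B1 nor the B2 family. They were taken from a table of reads over repeat intervals, in which each interval carries a repeat name, a class and a family, as every interval of class SINE whose family was neither Alu nor B2. This gave 4351 of 205758 intervals, or 4351 of the 111597 SINE intervals in the table, against 53283 Alu and 53963 B2 intervals. B4 supplied 3198 intervals, ID 659, MIR 488, tRNA 4 and Deu 2. The intervals are short windows: 4258 of the 4351 were 24 bases wide, and the others reached 71 bases, so a value describes a window inside an element and not a whole element. For 68 of the 4351, the family written into the interval's identifier differed from that in its annotation, and the annotation was used.

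SINEs are non-autonomous retrotransposons that descend from small RNA genes transcribed by RNA polymerase III through internal promoter boxes, and they are copied by the machinery of L1 elements. ID elements are related to BC1, a small neuronal RNA, B4 elements join an ID-like part to a B1-like part, and MIR elements are ancient and no longer mobile. Most of the intervals lie inside genes, mainly in introns. Reads over them in RNA-seq can therefore come from the host gene's RNA polymerase II transcript as well as from the element's own unit. The deposited counts do not separate these.

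The study put a dominant negative AP-1 construct, A-Fos, into neuron-enriched primary cultures of dorsal root ganglia from wild-type C57/Bl6 mice. A-Fos dimerises with Jun proteins and keeps AP-1 off DNA. Cultures given the dominant negative (DN) were set beside cultures given GFP, both by the PHP.S serotype of adeno-associated virus, and beside untransduced cultures. Each condition had 10 libraries, and the design text describes the replicates as cultures of separate mice divided among the 3 conditions. Titles place replicates 1 to 3 in a set with no further mark (plain), replicates 4 to 6 in a set marked 7 days in vitro (7DIV), and replicates 7 to 10 in a set that carries dates (dated). The viral serotype reaches peripheral neurons, and the cultures keep other ganglion cells. In bulk RNA, fewer cells of a type and less RNA per cell cannot be told apart.

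Sequences of the windows show how little of an element each count covers. The windows listed below are the tested intervals inside noncoding exons with the most reads, read 5′ to 3′ on the plus strand of GRCm38 from GENCODE transcripts; windows in introns and between genes are not shown, because no genome sequence was used here. They were picked after their values were seen. Capitals mark AGCCTGG, letters found in the B1 part of B4-type elements, TCAATCC, letters of the B box of ID elements, or AATAAA, the letters of the polyadenylation signal; a sequence with no capitals held none of these.
ID_B1 in 1700020I14Rik, chr2:119603164-119603187: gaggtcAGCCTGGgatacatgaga
ID_B1 in 6330403L08Rik, chr5:138999960-138999983: ctcaaggccagccaggaatacatt
ID4_ in Gm37494, chr7:39568254-39568277: taaatTCAATCCccagtactctta
RSINE1 in Vamp1, chr6:125244503-125244526: gcgtgtgcacacatacacacactc
RSINE1 in Tulp4, chr17:6122955-6122978: ccatgcttgcacccacccccggct
B4A in Zfp865, chr7:5023101-5023124: tctgcaacatgcacacatgtgcgt
MIR3 in Luc7l2, chr6:38570185-38570208: gagttggacttgataaccAATAAA
MIR in Pnisr, chr4:21858576-21858599: tgtgttcatggaaaaagaaataat

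Neither RSINE1 window held any of the searched letters, while the ID4_ window held those of the B box. Among the 405 windows of these families that lay wholly within an annotated exon, AGCCTGG on either strand occurred in 5.68%, and in 21 of the 149 ID_B1 windows (14.1%). It occurred in 1.36% of 2056 exonic Alu and B2 windows with reads. TCAATCC occurred in 1 of the 405 windows (0.247%), against 0.146% of the Alu and B2 windows, and AGCTCAG, letters of the A box of ID elements, in 2.72%, against 0.195%. AATAAA occurred in 9.88% of the 405, against 15.4% of the Alu and B2 windows. In MIR windows it was found in 16 of 57 (28.1%), on the sense strand of the transcript in all 16. The 405 windows include some without reads, unlike the Alu and B2 windows. Among the 248 with reads the shares were 8.47% for AGCCTGG, 0.403% for TCAATCC, 3.63% for AGCTCAG and 8.47% for AATAAA. In MIR windows with reads AATAAA was found in 25.0%. A match is only a string of letters within a 24-base window.

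Reads covered 2395 of the 4351 intervals, with 125680 reads over the 30 libraries. Most intervals were shallow: 970 had at least 30 reads in all and 47 had at least 300. By name, ID_B1 held the most reads (48283 over 1603 intervals), followed by RSINE1 (19487 over 510), B4A (14033 over 576) and B4 itself (10961 over 509), all of the B4 family. ID4 held 8169 reads over 263 intervals and ID4_ 8079 over 296, and these names made up most of the ID family. MIR held 5168 reads over 207 intervals and MIRb 4272 over 172. The single intervals with the most reads weighed differently in each name: one interval held 3.63% of all reads over these families, but 19.9% of the RSINE1 reads, 27.0% of the MIR3 reads and 33.3% of the MIRc reads.

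The elements sat mainly inside genes. Of the 4351 intervals, 67.6% were intronic, 22.8% intergenic, 7.81% in exons of noncoding transcripts and 1.75% in untranslated regions of coding transcripts, and 3 lay in coding sequence (GENCODE M21, GRCm38). The reads were spread differently, with 66.4% in introns, 12.1% between genes, 14.4% in noncoding exons and 6.68% in untranslated regions.

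Among elements inside genes of a single strand, reads fell mostly on those in genes of the plus strand of the genome. Of 1611 intervals in plus-strand genes, 1455 had a read (90.3%, 95% Wilson interval 88.8 to 91.7%), with 60.6 reads per interval. Of 1599 intervals in minus-strand genes, 431 had a read (27.0%, 24.8 to 29.2%), with 2.92 reads per interval. Plus-strand genes thus gave 97694 reads and minus-strand genes 4663, a plus share of 95.4% of the reads in genes of a single strand that lay between 93.6% and 97.2% in every library. The share was 95.9% for B4, 96.7% for ID and 90.4% for MIR, and 93.3% for Alu and 78.6% for B2. The strand setting of the counting is not given in the sources used here, and for elements inside genes the comparisons below describe mainly those in plus-strand genes.

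**Figure D1:**
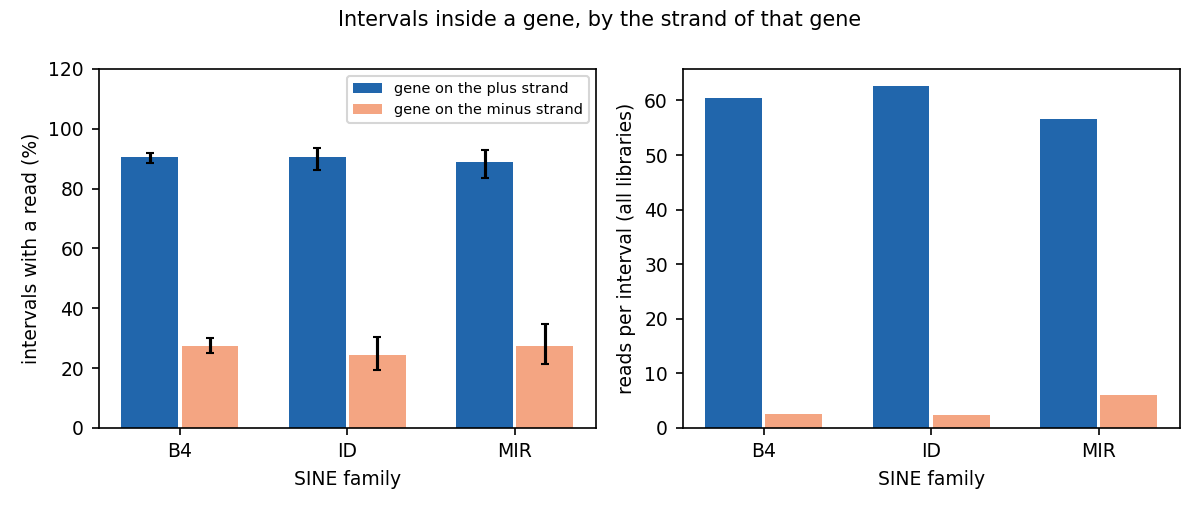
Intervals of the B4, ID and MIR families inside a gene, split by the strand of that gene, with the percentage that had a read (left, with 95% Wilson intervals) and the reads per interval over all libraries (right). About 90% of intervals in plus-strand genes had a read in each family, against 27.0% over all families for minus-strand genes.

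Gene reads per library, which set the scale of all levels given here, lay between 24086491 and 39138205 in 29 libraries and were 10667979 in untransduced replicate 4 of the 7DIV set. Levels are counts per 1000000 gene reads (CPM). Summed sensory neuron markers lay at 2560 to 4468 CPM in DN, 2278 to 4048 in GFP and 2265 to 4266 in untransduced libraries. Summed glial markers lay at 636 to 924 CPM in DN, 703 to 1029 in GFP and 460 to 969 in untransduced libraries, and fibroblast markers at 338 to 960 in DN, 376 to 851 in GFP and 335 to 651 in untransduced libraries. Macrophage markers lay at 9.31 to 13.8 CPM in DN, 10.1 to 17.9 in GFP and 8.34 to 16.6 in untransduced libraries, and endothelial markers at 2.34 to 21.3 in DN, 2.83 to 19.2 in GFP and 4.99 to 16.6 in untransduced libraries. Untransduced replicate 4 was the lowest untransduced library in glial (460 CPM), fibroblast (335) and macrophage (8.34) markers, where the others started at 675, 398 and 12.3 CPM, and it had the fewest reads over rRNA intervals, 18.2 for every 1000 gene reads, against 28.2 to 106 in the other libraries. None of the listed markers was at 0 throughout any condition, though 2 of the 4 macrophage markers were at 0 in untransduced replicate 4. The part of these cell types in the results below was not tested.

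Untransduced replicate 4 stood apart in the B4, ID and MIR families, and in the other SINEs too. Its level was 11.7 times the median of the other 29 libraries for Alu and 6.72 times for B2, so the excess is not particular to the members. Its summed level over the B4, ID and MIR families and their few relatives was 1108 CPM, 8.88 times the median of the other 29 libraries (125 CPM, with a range of 79.8 to 226), and this library held 9.41% of all reads over these elements. The excess was 8.61-fold for B4, 9.90-fold for ID and 9.64-fold for MIR, and over the 13 names tested below it ran from 4.14-fold for LFSINE_Vert, of the tRNA family, to 12.8-fold for MIRb. AmnSINE1, of the Deu family, had 28 reads over all libraries and 0 in this one. By position it was 11.3-fold for intronic elements, 6.74-fold in noncoding exons, 3.51-fold between genes and 2.85-fold in untranslated regions. Malat1, a long RNA kept in the nucleus, was at 42159 CPM in this library and between 1904 and 8253 CPM in the others.

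Single intronic windows moved furthest in that library. An ID4 window in an intron of Map7, a microtubule-binding protein, was at 6.84 CPM there, against a median of 0.213 CPM in the other 29. An ID_B1 window in an intron of Nedd4, a ubiquitin ligase, was at 20.4 CPM, against 0.988 CPM, and an ID_B1 window in an intron of Foxo1, a transcription factor, at 8.62 CPM, against 0.345 CPM. Of the 62 intervals tested below, 42 were higher in this library than in all 29 others. At the same time 7 of the 62 had no read in it, which allows up to 0.281 CPM each: the windows in Vamp1, Urod, Gm49463, Nlgn3, 6330403L08Rik, B230206L02Rik and Papln. Neither count was made over all tested intervals of the repeat table, so both describe the members only and show no trait particular to them.

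No difference in the summed level of these SINEs between DN and GFP cultures was larger than the spread between pairs. Summed over all members, DN libraries ranged from 87.6 to 182 CPM with a median of 118, GFP libraries from 90.5 to 226 CPM with a median of 139, and untransduced libraries from 79.8 to 1108 CPM with a median of 125. The DN mean was 123 ± 27.6 CPM and the GFP mean 143 ± 46.5 CPM (SD, n = 10 each), and the untransduced mean was 124 ± 35.5 CPM over the 9 libraries without replicate 4. The DN range lay almost wholly within the GFP range, and the highest GFP libraries were all of the 7DIV set. Paired by replicate number, DN minus GFP averaged −0.18 on the log2 scale (SD 0.36, lower in 8 of 10 pairs, exact permutation (sign-flip) test, two-sided p = 0.133). No label ties a replicate number to a mouse, and without the pairing, with libraries permuted within culture sets, the exact permutation p was 0.102. Leaving out each replicate number in turn gave differences of −0.24 to −0.10, with exact sign-flip p from 0.0313 to 0.266. The lowest p came without replicate 3, whose DN library was the highest of its group (−0.24). That omission was picked after its value was seen, and its p is not adjusted for the 3 contrasts or for the 10 omissions.

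Against untransduced cultures, DN differed by −0.31 (exact sign-flip permutation p = 0.426), and by −0.022 without replicate 4 (p = 0.852). GFP minus untransduced was −0.13 with all libraries (exact sign-flip permutation p = 0.990) and +0.12 without replicate 4, higher in 7 of 9 pairs (p = 0.0234, and 0.0703 after Benjamini-Hochberg adjustment over the 3 contrasts; 0.137 without the pairing). Both comparisons with untransduced cultures thus moved to near 0 or past it without that library.

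By family the picture was the same. B4 elements, the B1-ID composites, ranged from 64.7 to 131 CPM with a median of 86.4 in DN, from 68.0 to 167 CPM with a median of 103 in GFP, and from 59.3 to 797 CPM with a median of 93.0 in untransduced libraries. Their DN versus GFP log2 fold change was −0.16 (SE 0.23, 95% interval −0.61 to 0.28), with an adjusted p of 0.932 in edgeR's quasi-likelihood test with Benjamini-Hochberg adjustment over all 30 repeat families tested. ID elements averaged 18.5 ± 4.50 CPM in DN, 20.7 ± 7.05 in GFP and 18.04 ± 5.38 in untransduced libraries without replicate 4. Their DN versus GFP change was −0.085 (SE 0.26, interval −0.59 to 0.42). MIR elements averaged 13.2 ± 3.30 CPM in DN, 15.6 ± 5.20 in GFP and 13.6 ± 4.13 in untransduced libraries without replicate 4, with a DN versus GFP change of −0.17 (SE 0.25, interval −0.65 to 0.32). The tRNA family rested on the single interval of LFSINE_Vert, at 0.507 ± 0.219 CPM in DN, 0.498 ± 0.212 in GFP and 0.591 ± 0.224 in untransduced libraries without replicate 4, with a DN versus GFP change of 0.054 (SE 0.33). These levels sum different numbers of windows, so they do not rank the families per copy.

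The Deu family did not pass the filter on low counts. No family passed an adjusted p of 0.05 in DN versus GFP: 0 of the 4 families tested here, 0 at an unadjusted p under 0.05 and 0 in DESeq2, beside 0% of all 30 families. Without untransduced replicate 4 the standard errors shrank, to 0.087 for B4, and the changes were −0.18 for B4 (adjusted p = 0.288), −0.11 for ID (0.482) and −0.20 for MIR (0.288), beside 6.67% of all 30 families called. In DN versus untransduced the changes were −0.32 for B4, −0.27 for ID and −0.36 for MIR (adjusted p = 0.409, 0.429 and 0.409, edgeR), and −0.039, +0.034 and −0.062 without replicate 4. For tRNA the change was −0.41, and −0.078 without it. In GFP versus untransduced they were −0.16 for B4, −0.19 for ID and −0.19 for MIR (adjusted p = 0.777 for all 3), and +0.14, +0.15 and +0.13 without it (0.573). All 3 thus changed sign in GFP versus untransduced, and ID also in DN versus untransduced. For tRNA the GFP versus untransduced change was −0.46, and −0.16 without replicate 4.

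**Figure D2:**
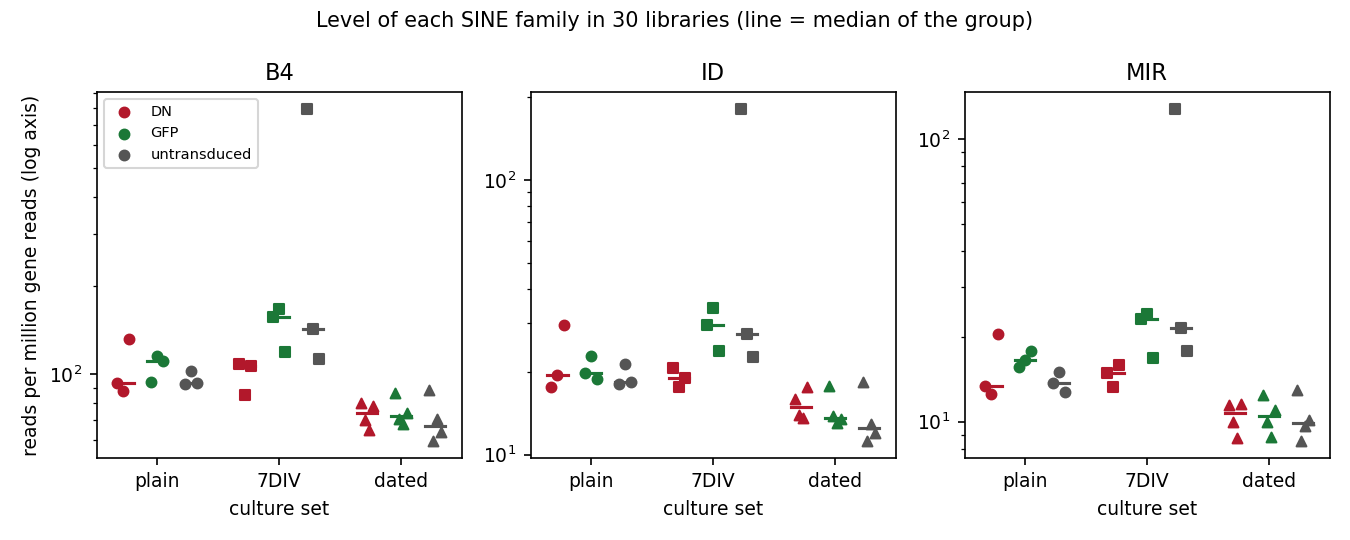
Level of the B4, ID and MIR families in each of the 30 libraries, in CPM on a log axis, by culture set, with DN, GFP and untransduced libraries side by side and a line at each median. Untransduced replicate 4, at 797 CPM for B4, 181 CPM for ID and 128 CPM for MIR, lies above all other libraries, and the GFP libraries of the 7DIV set lie above the DN ones in all 3 families.

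Of 15 repeat names among the members, 13 passed the filter on low counts, and 12 of the 13 were lower in DN than in GFP, with a median log2 fold change of −0.12. Over all 310 names tested the median was −0.11 and 70.3% were lower. No name passed in DN versus GFP, with 0 at an unadjusted p under 0.05 in edgeR and 0 in DESeq2, beside 0.968% of all names. ID_B1 averaged 47.3 ± 9.67 CPM in DN and 55.1 ± 18.3 in GFP cultures, a change of −0.14 (SE 0.24). RSINE1, the B4-family name with the largest change, averaged 19.1 ± 4.37 CPM in DN and 22.9 ± 6.33 in GFP cultures, a change of −0.23 (SE 0.22). The log2 fold change was −0.14 for B4A (SE 0.27), −0.15 for B4 (SE 0.24), −0.12 for ID4 (SE 0.27), −0.054 for ID4_ (SE 0.26), −0.19 for MIR (SE 0.25) and −0.10 for MIRb (SE 0.28). The other names lay between −0.35 and 0.043. No name passed in DN versus untransduced (0 at an unadjusted p under 0.05, 0 in DESeq2; 1.29% of all names) or in GFP versus untransduced (0, 0; 0% of all names). Without replicate 4 none passed in either, beside 1.61% of all names called in DN versus untransduced. Unadjusted p was then under 0.05 for 0 in DN versus untransduced, beside 8.06% of all names. In GFP versus untransduced it was under 0.05 for 1 (7.69%), beside 4.84% of all names.

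MIRc had the DN versus GFP fold change farthest from 0 of the 13 names. It ranged from 1.21 to 3.43 CPM with a median of 2.04 in DN, from 1.90 to 3.78 CPM with a median of 2.84 in GFP, and from 1.18 to 13.4 CPM with a median of 2.36 in untransduced libraries. It was lower in DN in 9 of 10 pairs, by −0.37 on average (SD 0.27). Without its most read interval the difference was −0.51, lower in 10 of 10 pairs. In edgeR it did not pass (−0.35, SE 0.23, adjusted p = 0.995 over all names). Without untransduced replicate 4 it was −0.36 (SE 0.14, adjusted p = 0.289 over all names). None of the 13 names then passed, beside 2.58% of all names. Unadjusted p was under 0.05 for 2 of the 13 (15.4%), beside 11.3% of all names. RSINE1 differed by −0.24 between pairs, and by −0.13 without its most read interval, which is described below.

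The 3 culture sets did not carry the DN and GFP difference equally. In the plain set the summed level was 125, 121 and 182 CPM in DN, against 131, 155 and 148 CPM in GFP cultures. In the 7DIV set it was 145, 116 and 142 CPM in DN, against 209, 226 and 160 CPM in GFP cultures, and 192 and 153 CPM in the untransduced cultures beside replicate 4. In the dated set the mean was 99.4 CPM in DN, against 100 CPM in GFP cultures. The average paired difference was −0.045 for plain, −0.013 for dated and −0.55 for 7DIV replicates, where it was negative in all 3 pairs. With 3 pairs the smallest two-sided exact sign-flip p is 0.25, and with 4 it is 0.125.

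A test of the difference between sets, the interaction of condition with culture set, gave an adjusted p of 0.986 for B4, ID and MIR in DN versus GFP with all libraries (edgeR, 0% of families called). Without untransduced replicate 4 it gave 0.0426 for B4, 0.0277 for ID and 0.189 for MIR, and 26.7% of all 30 families then passed. The 7DIV estimates without that library were −0.54 for B4, −0.60 for ID and −0.52 for MIR. In a fit of the 7DIV set alone without it, chosen after seeing the data, the adjusted p was 0.0433 for B4, 0.0121 for ID and 0.0433 for MIR, and 18.2% of 33 families passed, Alu and B2 among them. Malat1 moved with these libraries: in the 7DIV set it was at 4698, 5285 and 4168 CPM in DN, 7649, 8253 and 5169 CPM in GFP, and 6487 and 4281 CPM in untransduced cultures beside replicate 4. The part of nuclear RNA in the difference was not tested. In DN versus untransduced the interaction passed with all libraries (adjusted p = 0.0366 for B4, 0.0337 for ID and 0.0437 for MIR, 36.7% of families) and not without replicate 4 (0.108, 0.108 and 0.156, edgeR, 23.3% of families).

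**Figure D3:**
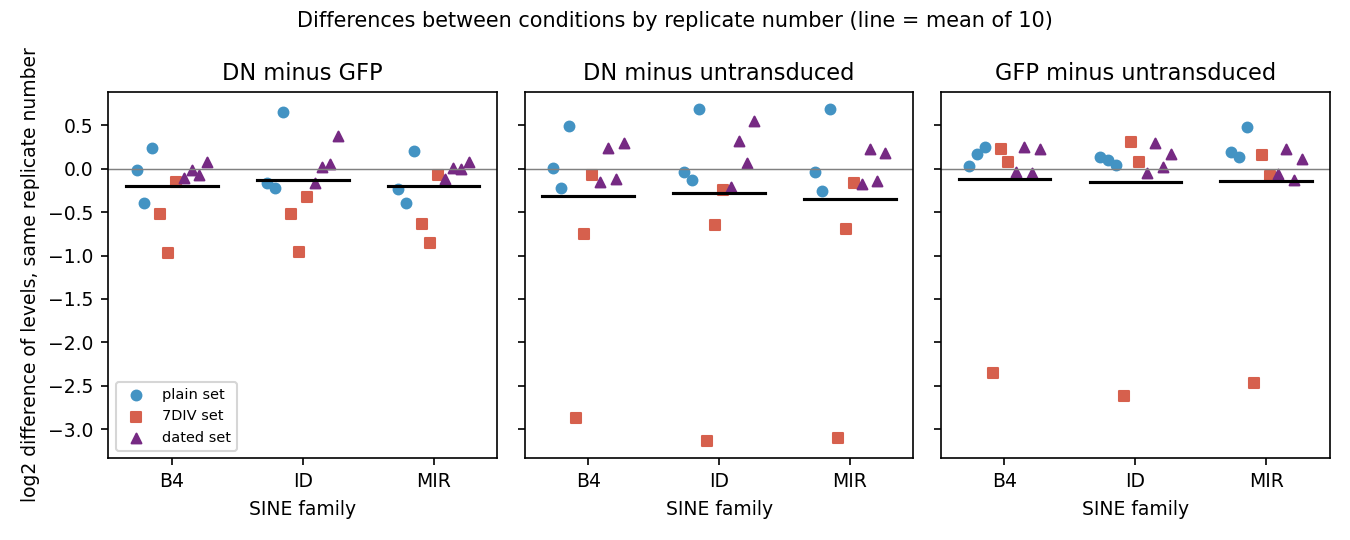
Log2 difference of the B4, ID and MIR levels between conditions within each replicate number, by comparison and culture set. The 3 pairs of the 7DIV set lie below 0 in DN minus GFP, and the pair with untransduced replicate 4 lies far below the others in both comparisons with untransduced cultures.

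The members were also set against the other SINEs of the same libraries. There were 11.6 reads over them for every 100 B2 reads in DN cultures, against 10.3 in GFP cultures. This ratio to B2 was higher in DN in 9 of 10 pairs (mean log2 difference 0.18, exact sign-flip permutation p = 0.0410), but the adjusted p over the 24 ratio tests was 0.193. The same ratio was higher in DN than in untransduced cultures in 8 of 10 pairs (0.21, exact sign-flip permutation p = 0.0430, adjusted 0.193), and differed by 0.22 without replicate 4 (p = 0.0469). The ratio to Alu differed by 0.031 (exact sign-flip permutation p = 0.551).

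By position, the intergenic members differed by −0.26 in DN minus GFP (lower in 7 of 10 pairs, exact sign-flip permutation p = 0.0156, adjusted 0.141 over 12 tests). Without the single intergenic interval with the most reads the difference was −0.12 (p = 0.105). For intronic members it was −0.20 (p = 0.178), for those in noncoding exons −0.083 (p = 0.600) and for those in untranslated regions −0.052 (p = 0.492). In DN minus untransduced the intergenic members differed by −0.33 (p = 0.0234, adjusted 0.141), and by −0.18 without replicate 4 (p = 0.0469, adjusted 0.141, exact sign-flip) or −0.13 without replicate 4 and that interval (p = 0.113).

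At single intervals, 62 members passed the filter on low counts, 43 of B4, 8 of ID, 10 of MIR and 1 of tRNA, and these held 32.99% of the reads over all members. In DN versus GFP 1 of the 62 passed an adjusted p of 0.05 (edgeR's quasi-likelihood test, adjusted over 12991 intervals), beside 2.01% of all intervals in either direction and 0.639% lower, so the share is close to the background. At an unadjusted p under 0.05 there were 6 of the 62 (9.68%), beside 10.3% of all intervals. Of the 62, 41 were lower in DN, with a median of −0.11, against a median of −0.01 and 52.6% lower over all intervals. In introns 23 of 29 were lower with a median of −0.15, and in noncoding exons 6 of 15 with a median of 0.10. Between genes 6 of 7 were lower (median −0.052), and in untranslated regions 6 of 10 (median −0.14). The 1 in coding sequence was higher (0.050). Shares by position were not counted over all intervals, so these counts describe the members only. In DN versus untransduced 0 of the 62 passed (1 in DESeq2), beside 2.46% of all intervals. Unadjusted p was under 0.05 for 6 (9.68%), beside 12.1% of all intervals. In GFP versus untransduced 0 passed (0 in DESeq2), beside 0% of all. Unadjusted p was under 0.05 for 1 (1.61%), beside 2.96% of all. Without replicate 4, where 63 members passed the filter, there were also 0 in both, beside 2.77% of all intervals called in DN versus untransduced. Unadjusted p was then under 0.05 for 3 (4.76%) in DN versus untransduced, beside 12.8% of all intervals. In GFP versus untransduced it was under 0.05 for 1 (1.59%), beside 2.85% of all.

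The interval that passed is an RSINE1 window between genes, at chr9:21919550-21919573 of GRCm38, with 3872 reads. It lay between 1.48 and 5.85 CPM with a median of 3.28 in DN, between 2.29 and 7.02 CPM with a median of 5.68 in GFP, and between 2.82 and 6.38 CPM with a median of 4.08 in untransduced cultures. The groups overlapped, but within a replicate number the DN library was lower than the GFP library in 10 of 10 pairs. The log2 fold change in DN versus GFP was −0.63 (SE 0.15, edgeR adjusted p = 0.0114), and −0.62 without untransduced replicate 4 (0.00185, beside 3.5% of all intervals). By culture set it was −0.59 (plain), −0.55 (7DIV) and −0.73 (dated). The call was lost without replicate 2 (−0.58, edgeR adjusted p = 0.0627), replicate 5 (−0.55, 0.0530) or replicate 8 (−0.51, 0.0603). Neither DN versus untransduced (−0.32, adjusted p = 0.376) nor GFP versus untransduced (0.31, 0.999) passed, and the untransduced mean (4.26 CPM) lay between the DN mean (3.47) and the GFP mean (5.30). Untransduced replicate 4 was not high at this window, at 4.03 CPM.

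The window starts 1357 bases past the end coordinate of Rab3d, which encodes a small GTPase of secretory vesicles, and ends 1434 bases before Tmem205, which encodes a membrane protein. Both genes lie on the minus strand. Rab3d was higher in DN cultures (88.0 ± 11.7 CPM) than in GFP cultures (74.4 ± 10.9 CPM), by 0.24 (SE 0.066, edgeR adjusted p = 0.0146 over all genes), the opposite sign to the window. Tmem205 averaged 12.1 ± 3.05 CPM in DN cultures and 12.1 ± 2.38 CPM in GFP cultures (−0.016, adjusted p = 0.952). A B2_Mm2 window 139 bases away, chr9:21919387-21919410, with 9993 reads, went the same way: 9.27 ± 2.43 CPM in DN and 12.7 ± 3.75 CPM in GFP cultures (−0.43, SE 0.11, edgeR adjusted p = 0.0272, lower in 9 of 10 pairs). The ratio of the RSINE1 window to the B2_Mm2 window differed by −0.21 (exact sign-flip permutation p = 0.143).

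**Figure D4:**
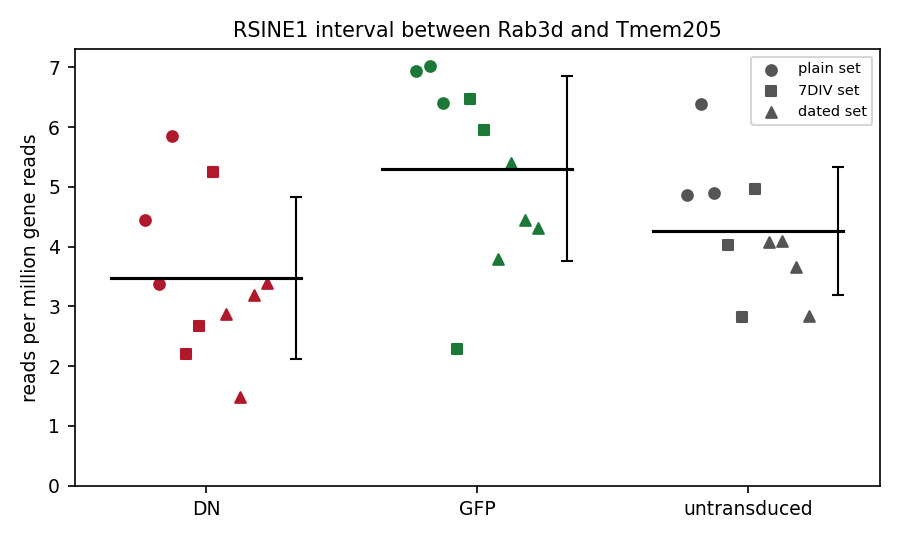
Level of the RSINE1 window between Rab3d and Tmem205 in each library, in CPM, for DN, GFP and untransduced cultures. Marker shapes give the culture set, lines the group means and bars the SD. The DN library is below the GFP library in 10 of 10 pairs, while the ranges of the groups overlap (1.48 to 5.85 in DN and 2.29 to 7.02 in GFP).

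The next 3 members by p, none of them close to the threshold, were an RSINE1 window between genes at chr3:104935581-104935604 (257 reads, −1.21, SE 0.52, edgeR adjusted p = 0.355), a MIR3 window in an intron of Insyn1, a gene of inhibitory synapses (−0.84, 0.372), and an ID_B1 window in an intron of Chd9, a chromatin remodeller (−0.61, 0.422). The Insyn1 window averaged 0.308 ± 0.186 CPM in DN and 0.520 ± 0.202 CPM in GFP cultures, while the fold change of Insyn1 itself was −0.14 (adjusted p = 0.103). The Chd9 window averaged 0.480 ± 0.172 CPM in DN and 0.765 ± 0.429 CPM in GFP cultures, and the fold change of Chd9 was −0.0083 (0.967).

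None of the other 4 intervals with the most reads passed in DN versus GFP. An ID_B1 window at chr1:132031457-132031480, in Elk4 and Mfsd4a, had 4558 reads and averaged 4.95 ± 0.85 CPM in DN and 5.09 ± 0.56 CPM in GFP cultures (−0.040, SE 0.11). Introns of the noncoding gene A930015D03Rik held a B4 window with 2001 reads (0.13, SE 0.16) and an ID_B1 window with 1956 reads (−0.0083, SE 0.16). The ID_B1 window in a noncoding exon of 1700020I14Rik, the first sequence shown above, had 1953 reads and averaged 2.10 ± 0.617 CPM in DN and 2.44 ± 0.567 CPM in GFP cultures (−0.21, SE 0.19).

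The members were then set beside the genes that hold them, for the 50 tested intervals in 46 genes that were themselves tested. Across these intervals the DN versus GFP changes of window and gene had a Pearson r of 0.33 and a Spearman rho of 0.17. The points share libraries, some share a gene, both values share the scaling, and reads over an exonic window can be part of its gene's count, so this is a description only. Window and gene had the same sign in 34 of 50 (68.0%), and 8 of the 46 genes passed in DN versus GFP, beside 10.9% of all genes tested. No window differed from its gene after adjustment over the 50 tests (4 at an unadjusted exact sign-flip p under 0.05, smallest adjusted p = 0.391).

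Pcolce2, which encodes an enhancer of procollagen processing, was among the 8 genes that passed. A B4A window in its untranslated region, chr9:95697549-95697572, with 272 reads, averaged 0.182 ± 0.082 CPM in DN, 0.318 ± 0.126 CPM in GFP and 0.441 ± 0.224 CPM in untransduced cultures. Its change was −0.81 in DN versus GFP (SE 0.39, edgeR adjusted p = 0.462) and −1.23 in DN versus untransduced (SE 0.39, 0.0920 in edgeR, 0.0247 in DESeq2, where 4.28% of all intervals passed). Without replicate 4 the DN versus untransduced change was −1.09 (edgeR adjusted p = 0.152). Pcolce2 itself fell by 0.90 on the log2 scale in DN versus GFP (SE 0.12, edgeR adjusted p = 8.47e-06). Of the other genes that passed, Nlgn3, Clpb, Ppp1r7, Urod, Arhgef40 and Map2k3 had the sign of their window. Itga7 did not: the gene changed by −0.40 (edgeR adjusted p = 2.76e-05), and a B4 window in its intron by 0.31. That window did not differ from Itga7 after adjustment (exact sign-flip, adjusted p = 0.615).

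**Figure D5:**
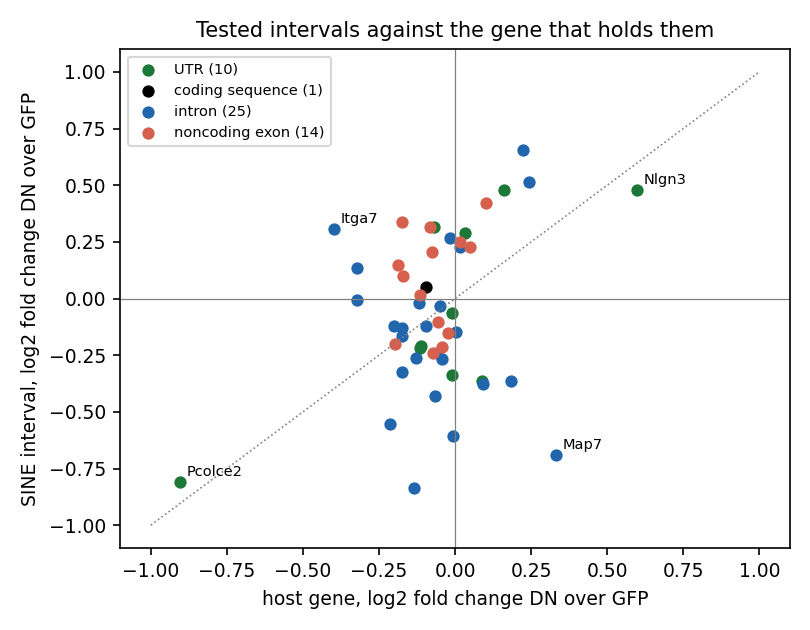
Log2 fold change in DN versus GFP of each of the 50 tested windows (vertical) against that of the gene that holds it (horizontal), with the dotted line of equal change. Window and gene had the same sign in 34 of 50. The B4A window of Pcolce2 lies near the line at −0.81 against −0.90, and the B4 window of Itga7 lies off it at 0.31 against −0.40.

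Intervals of the repeat name BC1_Mm, called after BC1, the small RNA related to ID elements, are annotated as class scRNA and so are no members. Summed over the 808 intervals of this name, the log2 fold change was −0.18 in DN versus GFP (SE 0.27, edgeR adjusted p = 0.995). These sums describe the repeat name and not the level of the Bc1 gene. In untransduced replicate 4 the name was at 96.6 CPM, against a median of 7.54 CPM in the other libraries.

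A list of 56 tested genes covered RNA polymerase III and its factors, SINE RNA and its particle, silencing, and double-stranded RNA handling. Of the 56, 3 were higher and 1 lower in DN than in GFP cultures (9 at an unadjusted p under 0.05, 6 called in DESeq2), beside 10.9% of all 18063 genes tested. Polr3g, a subunit of RNA polymerase III, averaged 26.7 ± 4.81 CPM in DN and 20.3 ± 2.52 CPM in GFP cultures (0.39, SE 0.10, edgeR adjusted p = 0.0122, higher in 10 of 10 pairs). Polr3e, another subunit, averaged 27.0 ± 2.61 CPM in DN and 23.0 ± 1.98 CPM in GFP cultures (0.23, edgeR adjusted p = 0.0370, higher in 10 of 10). Both belong to the 21 tested genes of the polymerase and its factors, whose median change was −0.00015.

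Among 10 genes that handle double-stranded RNA, Ddx58, which encodes the sensor RIG-I, was higher in DN cultures (27.7 ± 3.08 against 22.6 ± 2.80 CPM in GFP cultures, 0.30, edgeR adjusted p = 0.00477). Adarb1, which encodes the RNA-editing enzyme ADAR2, was lower (45.0 ± 6.53 against 65.7 ± 12.3 CPM, −0.54, SE 0.081, lower in 10 of 10 pairs, adjusted p = 3.73e-05). Adar, the editor of SINE hairpins, did not pass (0.12, edgeR adjusted p = 0.105). Of the 7 genes of SINE RNA and its particle 0 passed (0 at an unadjusted p under 0.05, 0 in DESeq2), with Srp9, which binds Alu-type RNA, at 0.016 (0.950), and of the 18 genes of silencing 0 passed (2 at an unadjusted p under 0.05, 1 in DESeq2), with Adnp, which represses SINEs in mouse cells, at −0.12 (0.571). Without untransduced replicate 4, 8 of the 56 passed, 4 higher and 4 lower, beside 17.8% of all genes, with Polr3b, a polymerase subunit, higher in addition, and Polr3k, another subunit, Dnmt1, the maintenance DNA methyltransferase, and Uhrf1, its recruiter, lower. In DN versus untransduced 3 were higher and 2 lower, beside 13.1% of all genes: Polr3g (0.52), Polr3b (0.24, edgeR adjusted p = 0.0493) and Ddx58 (0.40) higher, and Polr3k (−0.23, 0.0308) and Adarb1 (−0.64) lower. Without replicate 4 the same 5 passed and Uhrf1 was lower in addition (−0.14, edgeR adjusted p = 0.0256), beside 16.1% of all genes. In GFP versus untransduced 0 passed (2 at an unadjusted p under 0.05, 0 in DESeq2; 0% of all genes).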

How the data were processed

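The authors deposited raw counts of reads per gene and per repeat interval for 30 libraries. Per the submitters' processing notes the tools were bcl2fastq 2.17, STAR and HTSeq and the build GRCm38, with no role or order stated; per the labels' protocols RNA came from RNeasy Micro columns and TruSeq libraries. The sources used here give neither the choice of intervals nor the strand setting of counting.

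The deposited counts were summed by family and repeat name, scaled by gene totals (10667979 to 39138205 reads), and tested over all families, names, intervals or genes with edgeR 4.0.16's quasi-likelihood test (R 4.3.3, replicate number as a block, filterByExpr with a minimum count of 10, Benjamini-Hochberg adjustment, threshold 0.05). DESeq2 1.42.0 was an alternative. Totals were tested by exact two-sided sign-flip permutation over within-replicate log2 differences, with no reads added to the sums. Where windows were set against their genes, 0.5 reads were added. With 10 pairs no p can fall below 0.00195. Unless a sentence names another test, an adjusted p is edgeR's.

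The design text says that cultures of separate mice were divided among conditions, but no label ties a replicate number to a mouse. Of 30 same-numbered library pairs, 9 deviated together with a correlation above 0.1 (median 0.0654), so pairing by number is an assumption of the block and of the sign-flip tests. The main test was tried on simulated counts: of 200 intervals changed 2-fold, 90.5% were recovered in DN versus GFP, with 7 unchanged intervals called. Those counts had a single spread for all features, no replicate effect and no library with raised levels. The 90.5% is thus no estimate of power for the 62 members tested, whose median SE in DN versus GFP was 0.385.

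Wilson intervals (95%) and zero limits (3 counts) cover counting error only. Positions come from GENCODE M21. All families that passed the filter were reported; names were given for the 8 with the most reads and any past the threshold, and intervals for those past it, the 3 next by p and the 5 with the most reads. Named pathway genes were those past the threshold plus Polr3g, Srp9, Adnp and Adar. MIRc, LFSINE_Vert, MIR3, the windows of untransduced replicate 4, Pcolce2 and the other host genes that passed, and genes that passed in other contrasts were named after their values were seen. Members and lists were chosen with earlier results of these data known. Alternatives covered scaling, filter, tool, block, position, culture set and each replicate.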

Additional observations from a re-analysis of the deposited data

Results flagged for a closer look

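Among 51 groups of 10 libraries examined (3 conditions for the summed level, the B4, ID and MIR families and the 13 names tested), 22 held a library whose gap to the nearest other library was large for the range of its group. Chance gives about 1 in 20 for a single group. The 51 groups share reads and libraries, so the 22 are not separate events and cannot be set against that rate.

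In 17 of the 22 that library was untransduced replicate 4. It was at 1108 CPM for the summed level, where the next untransduced library was at 192 CPM. By family it was at 797 CPM for B4 (next 143), 181 for ID (next 27.5) and 128 for MIR (next 21.5). By name it was at 397 CPM for ID_B1, 170 for B4A, 124 for RSINE1 and 106 for B4, all of the B4 family. It was at 80.8 CPM for ID4, 75.1 for ID4_, 18.3 for ID2 and 7.31 for the name ID. It was at 51.6 CPM for MIRb, 46.6 for MIR, 16.3 for MIR3, 13.4 for MIRc and 2.06 for LFSINE_Vert. Malat1 was also high in this library, as given above. The part of nuclear RNA in these levels was not tested.

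In the other 5 it was DN replicate 3, of the plain set, and mostly in names of the ID family. It was at 29.6 CPM for the ID family (next DN library 20.6), 14.99 for ID4_ (next 9.56), 7.27 for MIRb (next 4.94), 2.91 for ID2 (next 1.95) and 1.74 for the name ID (next 1.01).

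The DN versus untransduced difference varied with the culture set in all 3 families (edgeR's quasi-likelihood test of the interaction, adjusted p = 0.0366 for B4, 0.0337 for ID and 0.0437 for MIR). The 7DIV estimates were −1.36 for B4, −1.50 for ID and −1.44 for MIR, and untransduced replicate 4 belongs to that set. Without it they were −0.39 for B4, −0.41 for ID and −0.44 for MIR, and the interaction did not pass (adjusted p = 0.108, 0.108 and 0.156).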

How the results depend on the processing

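All values are log2 changes unless named otherwise, and where the cause of a change is not built into the alternative it was not tested. Leaving untransduced replicate 4 out turned GFP versus untransduced positive: 0.12 for the summed level, 0.14 for B4, 0.15 for ID and 0.13 for MIR, and 0.12, 0.14, 0.14 and 0.13 with TMM factors as well. It also turned ID in DN versus untransduced (0.034, and 0.043 with TMM factors). Among names it turned, in GFP versus untransduced, B4 (0.17), B4A (0.21), ID_B1 (0.12), ID2 (0.16), ID4_ (0.081), ID4 (0.23), MIR (0.27), MIR3 (0.13), MIRc (0.17) and RSINE1 (0.15), and in DN versus untransduced B4A (0.034), ID2 (0.0062), ID4 (0.091), MIR (0.038) and MIR3 (0.12). The adjusted p for a difference between culture sets became 0.0426 for B4 and 0.0277 for ID in DN versus GFP, and 0.108, 0.108 and 0.156 for B4, ID and MIR in DN versus untransduced. The count of pathway genes past the threshold in DN versus GFP became 8, against 4 with all libraries.

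Single culture sets also turned signs. The plain and dated sets alone gave 0.097 and 0.078 for ID in DN versus GFP. In DN versus untransduced they gave 0.11 and 0.078 for the summed level, 0.10 and 0.064 for B4, 0.19 and 0.18 for ID, and 0.13 and 0.022 for MIR. In GFP versus untransduced they gave 0.15 and 0.092 for the summed level, 0.15 and 0.093 for B4, 0.093 and 0.10 for ID, and 0.26 and 0.033 for MIR. The 7DIV set alone without untransduced replicate 4 gave −0.54 for B4, −0.60 for ID and −0.52 for MIR in DN versus GFP, all past the threshold, and 0.15, 0.18 and 0.074 in GFP versus untransduced. With equal weight per interval ID was at 0.048 in DN versus untransduced and 0.072 in GFP versus untransduced.

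Without the replicate block the summed DN versus GFP change stayed at −0.18 and no call of a family, name or interval moved, but B4, ID and MIR were then at −0.51, −0.50 and −0.56 in DN versus untransduced and at −0.36, −0.45 and −0.40 in GFP versus untransduced; with that block dropped and untransduced replicate 4 left out, the values were 0.032 for ID in DN versus untransduced, and 0.14 for the summed level, 0.15 for B4, 0.15 for ID and 0.14 for MIR in GFP versus untransduced. MIR3 in DN versus GFP, near 0, turned with TMM factors (0.0096), repeat table totals (0.033) and no block (0.021).

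Leaving out each replicate number in turn gave −0.24 to −0.10 for the summed level and −0.18 to 0.013 for ID in DN versus GFP, and −0.39 to 0.057 for ID in DN versus untransduced. In GFP versus untransduced it gave −0.17 to 0.12 for the summed level, −0.20 to 0.13 for B4, −0.25 to 0.13 for ID and −0.26 to 0.11 for MIR. The count of intervals past the threshold ran from 0 to 1 in DN versus GFP, and DESeq2 called 1 in DN versus untransduced. The RSINE1 window on chromosome 9 did not pass in the plain or the 7DIV set alone (−0.59 and −0.55). In the main fit 62 of 4351 intervals passed the filter on low counts, so changes at the others were not tested singly there. The others entered the sums by family and name.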
